A study of Mus musculus with 3 samples.

Results

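The subcortical maternal complex (SCMC) genes are 8 mouse genes, Nlrp5, Nlrp2, Nlrp4f, Ooep, Tle6, Khdc3, Padi6 and Zbed3, whose proteins assemble in the growing oocyte. They were chosen by name, and their H3K36me3 was read from every 2 kb window that overlapped the gene (the body) or the 10 kb on either side of it (the flanks). This gave 97 body windows and 79 flank windows, 176 of the 1186323 windows with a value, and 8 of the 21063 protein-coding genes with at least 1 such window. H3K36me3, a trimethylation of lysine 36 of histone H3, was measured by native ChIP-seq adapted to very few cells, with micrococcal nuclease instead of cross-linking. The material was germinal vesicle (GV) oocytes, fully grown and still arrested in meiosis, from wildtype C57BL6/Babr mice 25 days old. Each of the 3 replicates was a pool of about 280 oocytes, and they formed 1 group, with no other genotype, age or treatment to compare with. Less antibody went into replicate 2. The authors first compared antibody amounts and then made another replicate with the amount of best yield, without saying which number it has.

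The SCMC is a large protein assembly under the plasma membrane of the oocyte and the early embryo. Its components are made during oocyte growth and stored, and mothers that lack one of them often produce embryos that stop during the first cleavages. H3K36me3 is laid down by SETD2 behind elongating RNA polymerase II, so that it usually marks the bodies of transcribed genes. In oocytes it is also associated with DNA methylation, by a link that may be indirect. H3K4me3 marks promoters and in oocytes forms broad domains as well, whereas H3K27me3 is a mark of Polycomb repression.

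All windows together held 7888140, 2692510 and 3166564 recovered reads in replicates 1, 2 and 3, and 1 read was worth 0.136, 0.396 and 0.338 RPKM (reads scaled to depth, the unit of the deposited values). The SCMC bodies held 2288 of these reads, so that single windows rest on few reads. The level of a gene below is its mean RPKM per body window, which is a value per length, and a window was called enriched when its mean over the 3 replicates was above 1. The calls of H3K4me3 and H3K27me3 came from earlier libraries, with 1 call per window, no value and no replicates. Of 10 oocyte marker genes, 9 had a level above 1 and Sohlh1 (0.330) did not, against 5 of 10 markers of granulosa cells, the somatic cells around the oocyte, with a median of 1.05 and a range from Inhbb at 0.265 to Nr5a2 at 2.02. Among all protein-coding genes 52.5% had a level above 1. No granulosa marker was at 0, and the part of somatic cells in the SCMC values was not tested.

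All 8 SCMC genes carried H3K36me3 over the body, with levels from 1.53 to 2.99 RPKM and a median of 1.97, against a median of 1.11 over all protein-coding genes. Each of the 8 was above 1, against 52.5% of all protein-coding genes. By window, 75 of 97 (77.3%) were enriched, against 51.2% of the windows in protein-coding bodies and 31.8% of all windows. In the flanks of the SCMC genes 45 of 79 windows (57.0%) were enriched. Of the 97, 49 (50.5%) passed 1 in each replicate by itself, against 34.0% in protein-coding bodies and 19.7% of all windows, and a value above 1 takes 8 reads in replicate 1 and 3 reads in each of the others.

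**Figure D1:**
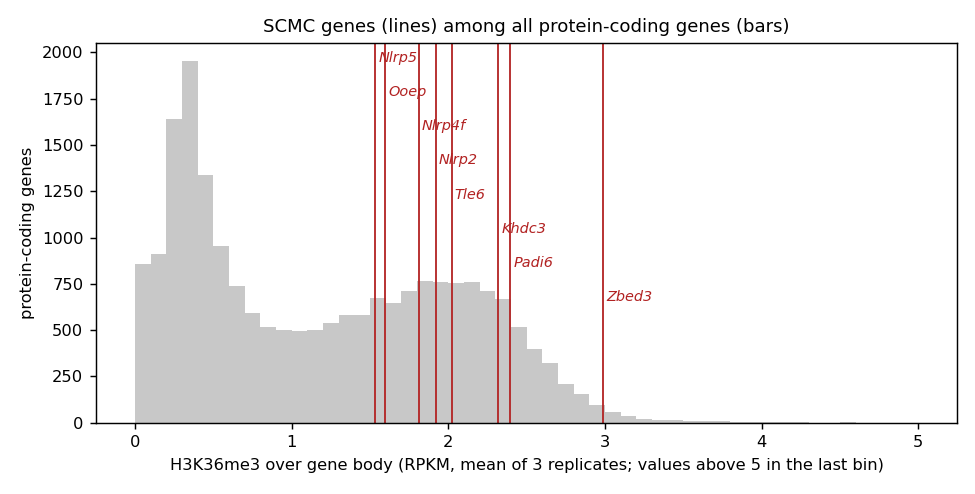
Number of protein-coding genes (vertical axis) by H3K36me3 level over the gene body in RPKM (horizontal axis, mean of 3 replicates), with a line for each SCMC gene. All 8 lines lie above 1 RPKM, from Nlrp5 at 1.53 to Zbed3 at 2.99.

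The core of the complex is formed by NLRP5 (also called MATER), OOEP and TLE6. Nlrp5 (ENSMUSG00000015721.18, chr7:23385889-23441922, plus strand, GRCm38, 16 merged exons) was the longest and had the lowest level, with 1.20, 1.50 and 1.89 RPKM in replicates 1, 2 and 3, or 1.53 ± 0.34 (SD, n = 3). It nevertheless exceeded 61.4% of protein-coding genes. Ooep (chr9:78376109-78378725, minus strand), which encodes a protein with a KH-like domain, covered only 2 windows and 41 reads. Its level was 1.49, 0.595 and 2.71 RPKM, or 1.60 ± 1.06, and the replicate 2 value rested on 3 reads. Tle6 (chr10:81590904-81601073, minus strand), a member of the Groucho family of co-repressors, was similarly uneven between replicates, with 2.26, 0.925 and 2.88 RPKM, or 2.02 ± 1.00. Replicate 2 was thus the low one in both Ooep and Tle6, the 2 genes whose level fell below 1 in a replicate.

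Khdc3 (chr9:73101836-73104438, plus strand), which encodes FILIA, a KH-domain protein that joins the core, had 2.13, 2.91 and 1.92 RPKM, or 2.32 ± 0.52, over 3 windows. Padi6 (chr4:140727355-140742643, minus strand), a member of the peptidylarginine deiminase family needed for the cytoplasmic lattices of the oocyte, was the most even between replicates. Its values were 2.11, 2.55 and 2.52 RPKM, or 2.40 ± 0.25, above 90.9% of protein-coding genes. Zbed3 (chr13:95323612-95337841, plus strand), a zinc finger protein that associates with the complex, was highest in replicates 1 and 3, with 2.70, 2.87 and 3.38 RPKM, or 2.99 ± 0.36. This level exceeded 99.0% of protein-coding genes. In replicate 2 Khdc3 (2.91) was slightly above Zbed3 (2.87).

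Nlrp2 (chr7:5298547-5351035, minus strand) and Nlrp4f (chr13:65177111-65205977, minus strand) encode further NLR family proteins found in the complex. Nlrp2 had 1.69, 1.81 and 2.26 RPKM, or 1.92 ± 0.30, and Nlrp4f had 1.25, 1.74 and 2.44 RPKM, or 1.81 ± 0.60. In order of level the genes were Zbed3, Padi6, Khdc3, Tle6, Nlrp2, Nlrp4f, Ooep and Nlrp5. Each neighbouring pair in this order overlapped in its range over replicates, except Zbed3 and Padi6, for which the lowest Zbed3 value (2.70) lay above the highest Padi6 value (2.55). Counting error alone spans -8.34% to 8.90% of the read count for Nlrp5 and -28.2% to 35.7% for Ooep (exact Poisson 95% intervals).

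**Figure D2:**
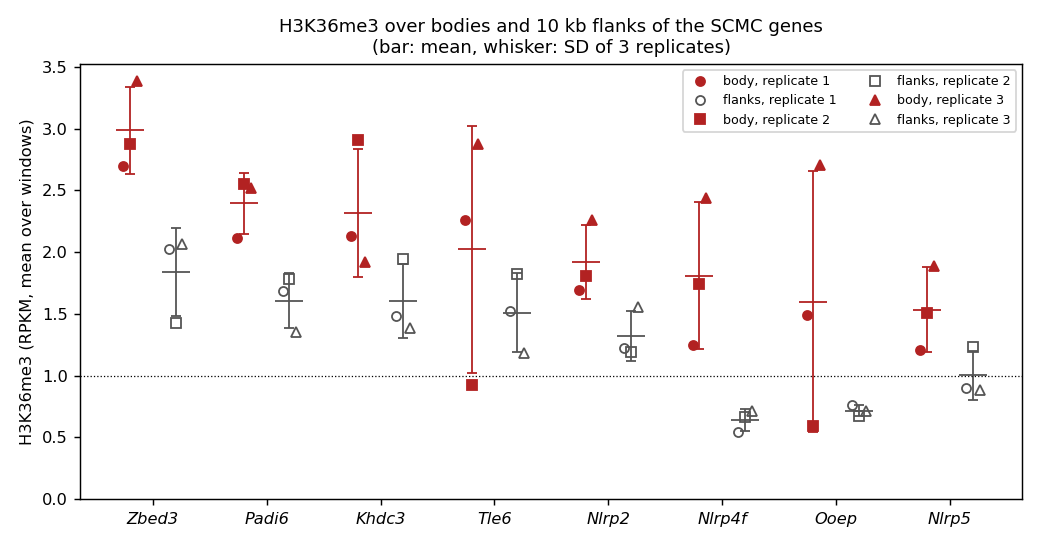
H3K36me3 in RPKM (vertical axis) over the body (filled) and the 10 kb flanks (open) of each SCMC gene, with 1 symbol per replicate, the mean as a bar and the SD over 3 replicates as a whisker. Bodies lie above flanks in all 3 replicates for 6 genes, and in replicate 2 the order is turned for Ooep and Tle6.

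Bodies were compared with their own flanks within each replicate, to ask whether the mark follows the gene. The body was higher than the flanks in all 3 replicates for 6 of the 8 genes, against 43.1% of protein-coding genes. Nlrp4f had flanks at 0.543, 0.661 and 0.714 RPKM, which its body exceeded by 0.706, 1.08 and 1.72, a mean of 1.17 ± 0.51. For Zbed3 the differences were 0.676, 1.45 and 1.32 RPKM, a mean of 1.15 ± 0.41 with flanks at 1.84, and this mean was 0.513 with flanks of 20 kb. For Nlrp5 the differences were 0.307, 0.275 and 1.01 RPKM, a mean of 0.531 ± 0.42, which fell to 0.291 without replicate 3. The Nlrp5 body mean includes the first 4 windows, with a level of 3.71 RPKM. The median of its body windows was 1.12 RPKM, and its downstream flank had a mean of 1.17. Padi6 (0.788 ± 0.37), Khdc3 (0.714 ± 0.22) and Nlrp2 (0.598 ± 0.12) were also positive in each replicate. All 6 reached p = 0.25 when the signs of the 3 differences were flipped in a two-sided exact permutation test, and 0.25 is the smallest p that 3 replicates allow. With flanks of 5 kb the count was 7, Ooep included (0.907 RPKM), and with medians over windows it was 5, without Nlrp5 (0.203 RPKM).

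In the other two genes replicate 2 went the other way. Ooep exceeded its flanks by 0.733 and 2.00 RPKM in replicates 1 and 3 and differed by -0.0793 in replicate 2 (mean 0.884 ± 1.05, exact permutation p = 0.5), and its mean difference was 1.36 without replicate 2 and 0.327 without replicate 3. Tle6 exceeded them by 0.742 and 1.69 RPKM in replicates 1 and 3 and fell by 0.898 in replicate 2 (mean 0.512 ± 1.31, exact permutation p = 0.75). The Tle6 mean was 1.22 without replicate 2 and turned to -0.0780 without replicate 3.

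Neighbouring genes lie in several flanks. Tle6 ends 3′ to 3′ against Tle2, a Groucho family gene with a level of 1.50 ± 0.31, and its downstream flank reached 1.52 RPKM. Nlrp2 overlaps the start of Gm5065, a protein-coding gene on the other strand with a level of 2.28 ± 0.42. The Nlrp2 flank on that side was at 2.00 RPKM, against 0.641 on the other side. Khdc3 lies between Rab27a, a small GTPase gene (1.93 ± 0.28), and Rsl24d1 (1.95 ± 0.51), and overlaps Gm20509 (1.74 ± 0.17). Without the flank windows that hold other genes, the difference between body and flank rose to 2.23 RPKM for Khdc3 and 1.28 for Nlrp2. Both were over 1.5 times the values above. For Khdc3 this left only chr9:73098001-73100000 as flank, with 2 reads and a mean of 0.0905 RPKM. For Nlrp2 it left only the flank at 0.641 RPKM. With windows assigned by their midpoint the Khdc3 difference was 2.07 RPKM, and its body was then the window chr9:73102001-73104000 alone. Padi6 is followed by Rcc2, a gene for a mitotic regulator (2.29 ± 0.39), and preceded by its relative Padi4 (0.903 ± 0.22).

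The windows at the gene starts carried more of the mark than those of most genes. All 8 start windows (the window that holds the annotated start) were called for both H3K36me3 and H3K4me3, against 17.0% of protein-coding genes. H3K4me3 by itself was called at 78.0% of all gene starts. The median level in the start window was 2.78 RPKM over the SCMC genes and 0.494 over all protein-coding genes.

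Nlrp4f had 2.85, 2.38 and 6.43 RPKM in its start window, the highest of the 8 with a mean of 3.89. Nlrp2 had 2.99, 3.17 and 4.74, but its start window is shared with Gm5065. Zbed3 had 2.58, 1.98 and 6.09, Padi6 2.17, 4.36 and 3.05, and Nlrp5 0.815, 3.57 and 2.71. These start windows exceeded those of 96.2% to 99.7% of protein-coding genes. The lowest was Khdc3 with 0.679, 2.38 and 0.677 RPKM, where replicates 1 and 3 were below 1 and the call came from replicate 2. In Tle6 (1.22, 0.396 and 3.72) and Ooep (1.22, 0.793 and 3.72) replicate 2 was below 1 and replicate 3 stood far above the others.

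The 250 bases before the start are shown for Nlrp5, Padi6 and Zbed3, because their RefSeq and GENCODE starts lie within 7 bases of each other and no other gene overlaps these starts. Capitals mark the letters CANNTG, the E-box that oocyte factors such as FIGLA and SOHLH1 recognise, and TAATTA or TAATTG, the core that the oocyte homeobox factor NOBOX recognises, on both strands and with overlapping matches counted. The sequences are from RefSeq (GRCm38.p6), written 5′ to 3′ on the strand of the gene.
Nlrp5, chr7:23385639-23385888, plus strand: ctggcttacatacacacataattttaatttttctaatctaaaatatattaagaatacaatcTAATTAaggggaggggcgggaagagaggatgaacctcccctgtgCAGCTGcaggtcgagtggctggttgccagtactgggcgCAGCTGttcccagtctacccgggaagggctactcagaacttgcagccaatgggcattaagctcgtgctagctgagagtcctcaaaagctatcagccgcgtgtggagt
Padi6, chr4:140742644-140742893, minus strand: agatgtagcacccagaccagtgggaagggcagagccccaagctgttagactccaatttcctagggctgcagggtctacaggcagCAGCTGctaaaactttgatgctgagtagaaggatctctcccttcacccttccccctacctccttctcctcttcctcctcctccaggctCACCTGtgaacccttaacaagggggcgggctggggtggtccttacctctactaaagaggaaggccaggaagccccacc
Zbed3, chr13:95323355-95323604, plus strand: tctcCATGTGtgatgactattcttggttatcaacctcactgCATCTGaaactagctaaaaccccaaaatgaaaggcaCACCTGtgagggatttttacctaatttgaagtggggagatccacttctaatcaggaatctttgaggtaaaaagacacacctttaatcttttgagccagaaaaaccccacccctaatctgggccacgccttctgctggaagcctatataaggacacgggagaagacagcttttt

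The Nlrp5 sequence held 1 homeobox core, 2 E-boxes and 7 CG dinucleotides. Padi6 held no homeobox core, 2 E-boxes and 1 CG, and Zbed3 no homeobox core, 3 E-boxes and 2 CG. Over the RefSeq start nearest to the GENCODE start of each gene, the homeobox core was present in 2 of 8 genes (Nlrp5 and Ooep), against 11.3% of 32851 promoters. CANNTG was present in 7 of 8, with Nlrp2 as the exception, against 66.2% of promoters. Of the 8 sequences, 5 had fewer than the median of 6 CG dinucleotides over all promoters. These matches describe the letters only and say nothing of binding.

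Within the body, the highest H3K36me3 lay close to the start. This contrast was chosen after the window values had been seen, and it is given without a test. In all 6 SCMC genes of at least 5 body windows the highest window of the mean profile was among the first 2, against 9.7% of protein-coding genes of at least 5 windows. Among the genes of 5 to 30 windows with a level above 1 that share was 8.75%. By single replicate the number was 4 of 6 in replicate 1, 2 of 6 in replicate 2 and 6 of 6 in replicate 3, and the mean profile without replicate 3 gave 3 of 6.

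In Nlrp5 the first 2 windows had 2.38, 3.96 and 6.26 RPKM and all later body windows 1.12, 1.32 and 1.57. Padi6 had 2.92, 4.16 and 5.08 RPKM in the first 2 and 1.88, 2.10 and 1.79 in the rest. Both genes thus had a higher start in every replicate. Nlrp2 had 2.65, 2.97 and 5.75 RPKM against 1.61, 1.71 and 1.96, and Nlrp4f 2.38, 2.97 and 5.25 against 1.08, 1.56 and 2.00. The start was higher in each replicate in these 4 genes of 6, against 5.63% of protein-coding genes of at least 5 windows and 4.5% of those of 5 to 30 windows with a level above 1. The mean difference was 2.87 ± 1.73 RPKM for Nlrp5, 2.13 ± 1.13 for Padi6, 2.03 ± 1.53 for Nlrp2 and 1.99 ± 1.09 for Nlrp4f, and without replicate 3 that of Nlrp2 was 1.15. With the first 3 windows in place of 2 it was 0.741 for Nlrp2 and 1.22 for Nlrp4f. With windows assigned by their midpoint Padi6 was no longer higher at the start in each replicate and Zbed3 was (mean 0.764), as Zbed3 also was with the first 3 windows (0.797).

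Zbed3 had 3.46, 2.58 and 5.08 RPKM in its first 2 windows and 2.44, 2.97 and 2.82 in the rest, so that replicate 2 went the other way. Its mean difference of 0.959 ± 1.33 was 1.64 without replicate 2 and 0.311 without replicate 3. Tle6 had 1.77, 0.793 and 4.23 RPKM in its first 2 windows, which differed from the rest by -0.747, -0.198 and 2.03, higher at the start in replicate 3 alone. Its mean difference of 0.362 ± 1.47 turned to -0.473 without replicate 3. Over the 6 genes the median differences in replicates 1, 2 and 3 were 1.04, 1.34 and 3.26 RPKM, whereas the median over all protein-coding genes of at least 5 windows was -0.401.

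**Figure D3:**
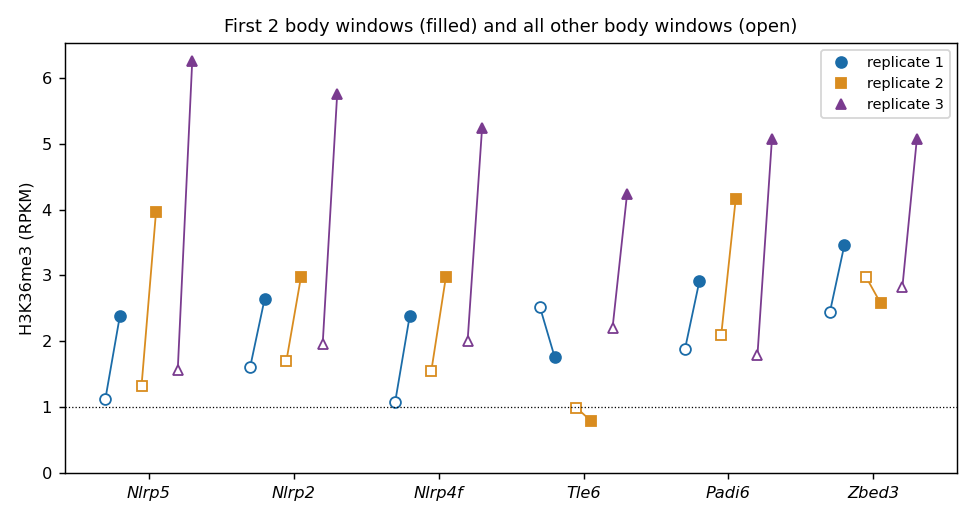
H3K36me3 in RPKM (vertical axis) in the first 2 body windows (filled) and in all other body windows (open) of the 6 SCMC genes of at least 5 body windows, with a line joining both values of each replicate. The lines rise toward the start in all replicates for Nlrp5, Nlrp2, Nlrp4f and Padi6, and the filled symbols of replicate 3 lie highest in all 6 genes.

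Replicate 3 had the highest first 2 windows in each of the 6 genes. Over the 3525 protein-coding genes with both calls at the start, the mean start window was 1.42, 1.74 and 1.74 RPKM in replicates 1, 2 and 3. Over the SCMC genes it was 1.82, 2.38 and 3.89. The distance between replicate 3 and the others at SCMC starts was not seen in the mean over the 3525 genes, which include the SCMC genes. That mean was lower than the SCMC mean in each replicate. Whether replicate 3 was also higher at other strongly marked starts was not tested.

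Nlrp5 was the most uneven of the genes. Its 29 body windows ranged from 0.0453 to 6.04 RPKM, with a coefficient of variation of 87.4%, against 50.2% in Nlrp2 and 53.2% in Nlrp4f. Only 15 of the 29 (51.7%) were enriched, close to the 51.2% of windows in all protein-coding bodies, and these lay in 6 separate runs. In Nlrp2 20 of 25 were enriched and in Nlrp4f 12 of 15, and in the 5 shorter genes every body window was enriched.

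The first run of Nlrp5, at chr7:23384001-23392000, had a level of 2.61, 3.17 and 5.33 RPKM in the 3 replicates. It held the highest window of the gene, chr7:23386001-23388000, with 3.94, 4.36 and 9.81 RPKM (69 reads). All of the gene's 3 windows called for H3K4me3 lay in this run. The second run, at chr7:23398001-23406000, had 1.77, 3.17 and 1.69 RPKM and lay within the long first intron up to its last window. The third, at chr7:23414001-23420000, had 1.36, 1.85 and 2.71 RPKM and covered the largest exons, with 1 window that was exon throughout at 1.71 ± 0.45. The 3 remaining runs were short, of 4 kb, 2 kb and 2 kb, with levels of 1.27, 1.68 and 2.25 RPKM.

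The lowest window of Nlrp5, chr7:23410001-23412000, held 1 read in all 3 replicates together (0.136, 0 and 0 RPKM). Another low window inside the 3′ part, chr7:23420001-23422000, held 3 reads, all in replicate 1. Between the first and the second run, 3 windows had means of 0.607, 0.407 and 0.904 RPKM. There 91.3%, 93.8% and 87.9% of the bases were masked as repeats, where short reads are harder to place. The low windows further on were less repetitive, with 54.6% in the lowest and 25.0% at chr7:23420001-23422000. Over all 29 windows the correlation of level and repeat share was -0.163, given as a description because neighbouring windows are not independent. The part of repeats in these dips was not tested.

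**Figure D4:**
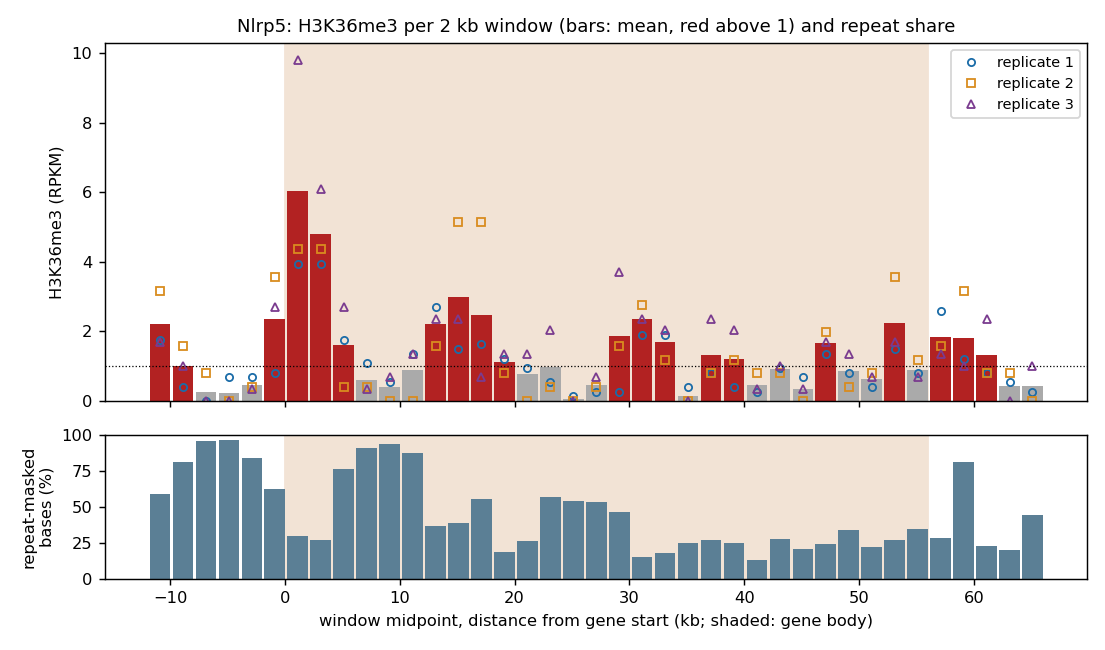
H3K36me3 per 2 kb window of Nlrp5 and its flanks in RPKM (upper panel, bars for the mean of 3 replicates, red above 1, symbols for replicates) and the percentage of repeat-masked bases (lower panel), by distance of the window midpoint from the gene start in kb. The highest bar, 6.04 RPKM, stands just inside the gene, and enriched and unmarked stretches alternate down to 0.0453 RPKM.

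The level of Nlrp5 was 1.49, 1.77 and 2.30 RPKM in the windows 5′ of the gene's midpoint and 0.892, 1.22 and 1.45 in those 3′ of it. The 3′ part was lower in each replicate, by 0.668 ± 0.16 on average (the same exact permutation test, p = 0.25). With the median over windows in place of the mean, the difference turned to 0.119 RPKM higher in the 3′ part. Nlrp4f was lower in its 3′ part as well, at 1.58 against 2.07 RPKM, in each of 3 replicates (exact permutation p = 0.25), and with medians over windows no longer in each of them. For Nlrp2 the values were 1.82 and 2.00 RPKM, and replicate 2 went the other way (exact permutation p = 0.5). A 3′ part below the 5′ part in all replicates was found in 2 of these 3 genes and in 11.5% of protein-coding genes of at least 10 windows. Each 5′ part includes the high windows at the start, so this contrast is not separate from that of the first 2 windows. Whether the level falls beyond the start was not tested.

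In Nlrp5, windows that hold exon sequence averaged 1.09 RPKM and the others 2.26. In Nlrp2 the means were 1.90 and 1.95, and in Nlrp4f 1.98 and 1.46, so that no common order of exon and intron windows was seen. The replicates resembled each other along Nlrp5, with Pearson's r over 29 windows of 0.609 between replicates 1 and 2, 0.773 between 1 and 3 and 0.558 between 2 and 3. These values describe neighbouring windows of shared libraries.

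Nlrp2 was marked along most of its length in 5 runs, of which the last 2 were parted only by windows without a value. Its highest window was chr7:5348001-5350000, just inside the gene, with 2.31, 2.77 and 6.77 RPKM. The next window, chr7:5346001-5348000, was the lowest, with 0.407, 0 and 0 RPKM, and 99.2% of its bases were repeats. A second high point in the middle of the gene reached 2.99, 3.57 and 4.06 RPKM at chr7:5324001-5326000. Of the 27 windows of this gene 2 were without a value and were not used, as was 1 flank window of Nlrp4f. In Nlrp4f the highest window was that of the start, and the lowest, chr13:65188001-65190000, had 0.136, 1.59 and 0.677 RPKM. Later peaks of Nlrp4f stood at 2.72 and 3.05 RPKM in the middle and 3′ parts.

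Of the small genes, Khdc3 had 0.679, 2.38 and 0.677 RPKM in its first window. Its second window, which holds most of its exon sequence, had 3.39, 3.57 and 4.06 RPKM and was the most even between replicates, and the third had 2.31, 2.77 and 1.02. The second Ooep window had 1.77, 0.396 and 1.69 RPKM.

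**Figure D5:**
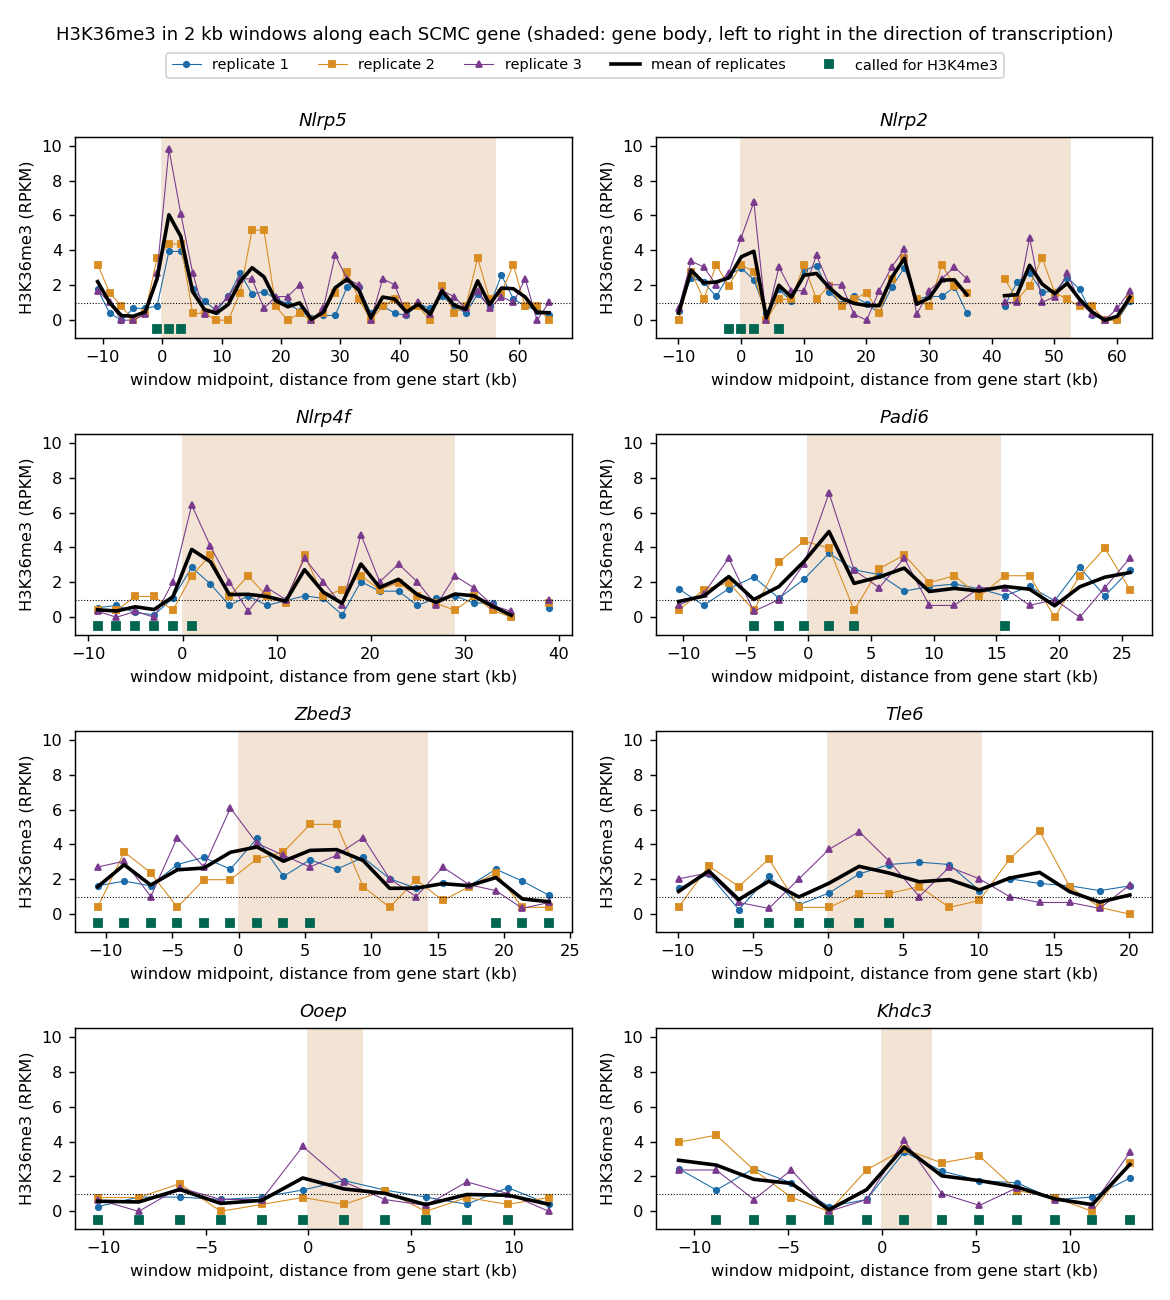
H3K36me3 in RPKM (vertical axes) of each 2 kb window by the distance of its midpoint from the gene start in kb (horizontal axes), for the 8 SCMC genes in the direction of transcription, with replicates as coloured lines, their mean in black and windows called for H3K4me3 as squares under the curves. Lines are broken where a window had no value. Windows close to the start are high in most panels, and H3K4me3 squares extend over all of Khdc3 and Ooep but over only the start of Nlrp5.

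No H3K27me3 was called in any SCMC body or flank window. This was 0 of 97 body windows, against 25.9% of windows in protein-coding bodies. Genes with no such call in body and flanks made up 34.2% of all protein-coding genes. In the bodies 52 windows were called for H3K36me3 alone, 23 for H3K36me3 with H3K4me3 and 22 for none of the marks, and every body window with H3K4me3 also had H3K36me3. H3K4me3 thus covered 23.7% of the body windows, against 26.2% in all protein-coding bodies.

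In the flanks 37 of 79 windows (46.8%) were called for H3K4me3, against 28.3% of all windows, and 18 of these lacked H3K36me3. They were unequally spread. Ooep and Khdc3 each had 9 flank windows with H3K4me3, Zbed3 8, Nlrp4f 5, Tle6 3, Padi6 2, Nlrp2 1 and Nlrp5 none. Upstream of Nlrp4f, 4 windows in a row carried H3K4me3 without H3K36me3, at 0.358 to 0.60 RPKM. Both marks were called in the window just before the start of this gene (1.17 RPKM) and in the start window (3.89 RPKM). The next body window was called for H3K36me3 alone.

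The run of enriched windows across the start was longest in Zbed3, where 23 windows in a row covered 46 kb (chr13:95298001-95344000) at 2.70 ± 0.34 RPKM. It began 25.6 kb upstream of the annotated start, and 11 of its windows were also called for H3K4me3. The Padi6 run covered 28 kb at 2.11 ± 0.22 RPKM and reached into Padi4. The Tle6 run covered 18 kb and reached into Tle2, and those of Nlrp2 and Nlrp4f covered 12 kb each. The Nlrp2 run began 8.965 kb upstream and lay mostly over Gm5065. Khdc3 had a run of 10 kb, Nlrp5 of 8 kb at 3.71 ± 1.43 RPKM, and Ooep of 6 kb. The Nlrp5 run began only 1.89 kb upstream, with 3 repeat-rich windows of 0.226 to 0.471 RPKM before it.

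Proteins that work with the SCMC or are held by it were compared next. All 3 genes of this list, Cfl1 (the actin-severing protein cofilin, 1.70 ± 0.59), Uhrf1 (a cofactor of maintenance methylation, 2.16 ± 0.25) and Dnmt1 (the maintenance methyltransferase, 2.32 ± 0.14), had a level above 1 and both calls at the start.

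Among 22 relatives of the SCMC genes by family, 11 had a level above 1 (median 1.03), and 10 had at least 1 body window called for H3K27me3. The relatives ranged from Khdc1a at 0.136 RPKM, with 1 window, to Zbed4 at 2.28 ± 0.36. The start window had both calls in 1 of the 21 relatives with a valid start window (Nlrp6), and the highest window was among the first 2 in 3 of 17 relatives of at least 5 windows. Padi4, which lies directly upstream of Padi6, had 0.917, 1.11 and 0.677 RPKM and 3 windows with H3K27me3. Padi6 was above it in each replicate. Dppa5a, next to Ooep, had 0.883, 0.595 and 0.508 RPKM and no H3K27me3, and in replicate 2 its level equalled that of Ooep.

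Of 10 other NLR family genes known from oocytes, 8 had a level above 1, with a median of 1.54 RPKM. They ranged from Nlrp4d (0.297 ± 0.11, the only 1 with H3K27me3) to Nlrp14 (2.57 ± 0.37). Nlrp4d and 1 more of the 10 are annotated as pseudogenes, and neither had both calls at the start. The start carried both calls in 4 of 10, and the highest window was among the first 2 in 1 of 10, Nlrp14. Nlrp14 had 2.40, 2.31 and 2.99 RPKM over its body and 3.87 in its start window. Of the 3 oocyte markers of at least 5 body windows, Zp2 and Zp3, which encode zona pellucida proteins, also had their highest window among the first 2. The level was therefore above 1 in most of the oocyte NLR genes as in the SCMC genes. Both calls at the start were made in 8 of 8 SCMC genes and in 4 of these 10 NLR genes. Of the 10 oocyte markers, 7 had both calls at the start. These lists are small and the differences between them were not tested.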

How the data were processed

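H3K36me3 ChIP-seq libraries of 3 pools of GV oocytes were analysed from the deposited tables. The authors' methods describe read trimming, mapping to GRCm38 (Bowtie2 2.2.9 per the submitters' processing notes) and quantification in SeqMonk over 2 kb windows, with windows of extreme input signal left out. The deposited RPKM values are linear, per replicate and unpooled. Each was a whole multiple of the value of 1 read (100% of values, within 0.01 of a read), from which reads were recovered. Whether the authors also divided by window length was not settled, so RPKM was treated as proportional to reads scaled to depth. The second table holds mark names and no measurement. The H3K36me3 call equals a mean RPKM above 1, and the H3K4me3 and H3K27me3 calls rest on libraries not used here. A window without an entry was taken as unmarked. Input was not used as a control value here.

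Genes came from GENCODE release M21. Any overlap put a window in a body, and flanks excluded it. Contrasts were taken within replicates and tested by flipping their signs in an exact two-sided permutation test, with no p adjusted over the 8 genes alone. Nothing in the labels says that the pools came from separate animals, so p-values measure the spread between these samples. Gene parts were compared for genes of at least 10 body windows and first windows for at least 5. Windows are not replicates. Reads carry no molecular identifiers, and intervals and limits cover counting error only. Alternatives were leaving out each replicate, assigning windows by midpoint, medians over windows, pooled reads, flanks of 5 kb or 20 kb or without other genes, and thresholds of 1.5 and 2. The scripts were tested on simulated data. The members and gene lists were chosen with earlier results of these data known. Named were the 8 members, genes overlapping their bodies or flanks, and from each list at most 4 examples (highest, lowest and neighbours of a member), with all 3 partners; Nlrp6, Sohlh1, Zp2 and Zp3 were named after their values were seen. Python 3.11.15, numpy 2.4.6 and pandas 2.3.3 were used.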

Additional observations from a re-analysis of the deposited data

How the results depend on the processing

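Of 158 values recomputed under alternative settings for 23 results, 4 differences did not keep their direction and 6 counts or shares moved, as given here. Of 126 recomputed differences 122 kept their direction, and 25 of these moved by over 1.5 times. The share of enriched body windows was 55.7% at a threshold of 1.5, 40.2% at 2 and 50.5% where each replicate had to pass 1, and leaving out a replicate gave 71.1% to 80.4%. At a threshold of 2, 4 genes had a body level above it. Leaving out a replicate gave -0.0780 to 1.22 RPKM for Tle6 body minus flanks, and -0.473 to 0.916 for its first 2 windows minus the rest, which came to 0 with pooled reads. With medians over windows the Nlrp5 3′ part was 0.119 RPKM above the 5′ part, since the highest windows then weigh no more than others. The number of genes with their highest window among the first 2 was 3 to 6 when a replicate was left out, the lowest without replicate 3. With only 1 group, no pairing of samples between groups was possible, and the contrasts along the genome were already paired within replicates. Depth limits single windows most, as 1 read is 0.396 RPKM in replicate 2 and 0.338 in replicate 3.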

Other observations

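RefSeq gives Nlrp5 a second start 18213 bases inside the gene. The window that holds it had a mean of 1.12 RPKM, lower than the 2.36 RPKM at the annotated start. Replicate 1 went the other way, with 1.22 RPKM at the second start and 0.815 at the annotated one. The start window of Tle6 held 59 CG dinucleotides and the second window of Zbed3 100, against 16 in the start window of Nlrp5. Enriched windows of Nlrp2 had a mean repeat share of 33.9% and the others 48.4%, and in Nlrp4f the order was turned, at 29.4% and 20.1%.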
